A study of Mus musculus with 12 samples.

Results

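The transition from the oocyte to the 1-cell embryo was followed in wild-type C57BL/6 mice, labelled Pabpn1l-WT, by comparing 2 libraries of germinal vesicle (GV) oocytes with 2 libraries of 1-cell embryos. These 4 libraries were taken from 12 in the series. They were chosen by their stage and genotype labels, and all 11298 genes with a complete entry were compared. The other 8 libraries were WT 2-cell embryos and Pabpn1l knockout (KO) GV oocytes, 1-cell and 2-cell embryos, with 2 libraries in each of the 6 groups of the series. A library held 10 oocytes or 10 embryos and was prepared by Smart-seq2, a method that copies RNA into DNA from an oligo-dT primer and amplifies it. The oocytes came straight from the animal, and the embryos had been kept in KSOM, a culture medium. No age of the mice, time after fertilization or way of mating is given in the labels, which do not tell whether replicate libraries stem from different animals. The p-values therefore rest on a spread that may be only technical. The labels put no sample outside a group.

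A fully grown GV oocyte is arrested in the first meiotic prophase, its nucleus makes little new RNA, and it holds a large store of maternal mRNA. When meiosis resumes, part of the store is translated and much of it is destroyed. Tail length is central to both: cytoplasmic polyadenylation of dormant mRNAs, through short U-rich elements near the 3′ end that CPEB1 binds, goes with translation, and removal of the tail by the CCR4-NOT deadenylase, which the adaptor BTG4 links to mRNAs, goes with decay. Transcription of the embryo's own genome begins weakly in the late 1-cell embryo and strongly, in the mouse, at the 2-cell stage.

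Values were FPKM, fragments scaled to transcript length and to the mapped fragments of the library, and no value lay below 1 FPKM, which is called the floor. A floor value is thus an upper limit on the level, and no fold change between the stages is given for a gene at the floor in both libraries of a stage. Because cDNA was primed on poly(A), fewer molecules of a transcript and shorter tails cannot be told apart, nor can fewer intact cells and less RNA per cell. Summed over genes, the oocyte libraries held 579241 and 599399 FPKM and the embryo libraries 127008 and 98843 FPKM, so that 19.2% of the oocyte total was left. The deposited embryo columns carried a library factor, 0.269 in replicate 1 and 0.212 in replicate 2, by which every value above the floor had been multiplied; in the oocyte columns it was 1. What the factor was based on is not given in the sources used here. Before it was applied, values above the floor summed to 578284 and 598499 FPKM in oocytes and 454520 and 442199 FPKM in embryos. The fall in the total was thus much smaller before the factor, and it was not tested apart from it. FPKM before the factor are scaled to the fragments of each library, so they do not give RNA per embryo. Genes at the floor numbered 957 and 900 in oocytes and 4588 and 4937 in embryos. Before the factor, that floor stood at 1 FPKM in oocytes and at 3.71 and 4.71 FPKM in embryos. This higher limit enters the embryo counts. Replicates correlated across genes, which are not independent, with Pearson's r of 0.990 for oocytes and 0.986 for embryos on the log2 scale.

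The labelled stages were checked against their markers. All 18 markers of the oocyte and egg were measured and 17 were above the floor in all 4 libraries, with summed levels of 27123 and 27341 FPKM in oocytes and 5440.0 and 4096 FPKM in embryos. Of 23 markers of cumulus and granulosa cells, the somatic cells around the oocyte, 8 were measured and summed to 78.6 and 85.3 FPKM in oocytes and 20 and 15.7 FPKM in embryos. Most of that was Esr2 (43.9 and 45.5 FPKM in oocytes) and Cyp19a1 (25.4 and 23.8 FPKM), while Fshr, the receptor that defines granulosa cells, was at 1 and 1.06 FPKM in oocytes and at the floor in embryos. As deposited, 4 of the 8 were called lower. After the centring explained below 5 of the 8 lay at the common floor in all 4 libraries and could not be called, and none of the others was. The 7 measured markers of blood and immune cells summed to 22.1 and 21 FPKM in oocytes and 9.25 and 8.69 FPKM in embryos, with Hba-a2, Lyz1 and Lyz2 at the floor throughout. The oviduct marker Ovgp1, the only 1 of 5 measured, was at the floor in all 4 libraries. The 4 measured sperm markers went from 96.6 and 101.3 FPKM in sum to 12.2 and 10.9 FPKM, with Prm2, a protamine of sperm chromatin, at 17.3 and 18.1 FPKM in oocytes and 2.56 and 1.71 FPKM in embryos. The part of other cells in the results below was not tested.

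The first question was how far each transcript fell on the deposited scale, with the library factor in the values. Levels were lower in 1-cell embryos than in GV oocytes for 9692 of 11298 genes, which is 85.8%, by a linear model across all genes (limma on log2(FPKM + 1), with Benjamini-Hochberg adjustment and a threshold of 0.05). Only 4 genes, 0.0354%, were higher, and 2 without WT GV replicate 2. The 2 oocyte values were both above the 2 embryo values for 10036 genes, or 88.8%, and both below them for 10 genes, or 0.0885%. The fall was at least 2-fold on this scale for 7654 genes, or 67.7%. From above the floor in both oocyte libraries, 3278 genes came to the floor in both embryo libraries, and 4 genes went the other way. Before the factor the embryo floor lay at 3.71 and 4.71 FPKM, so the first count is not one of lost transcripts. A further 626 genes stayed at the floor in all 4 libraries. The size of the shared shift was taken from the 6245 genes that exceeded the floor in each of the 4 libraries. Between the stages the library median of their log2 levels fell by 2.50, to 17.7% of the oocyte level, 18.9% in replicate 1 and 16.7% in replicate 2. Taken gene by gene, the median share left of the same genes was 22.5%. A typical gene of this set thus kept somewhat more than the shift of the library medians.

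**Figure D1:**
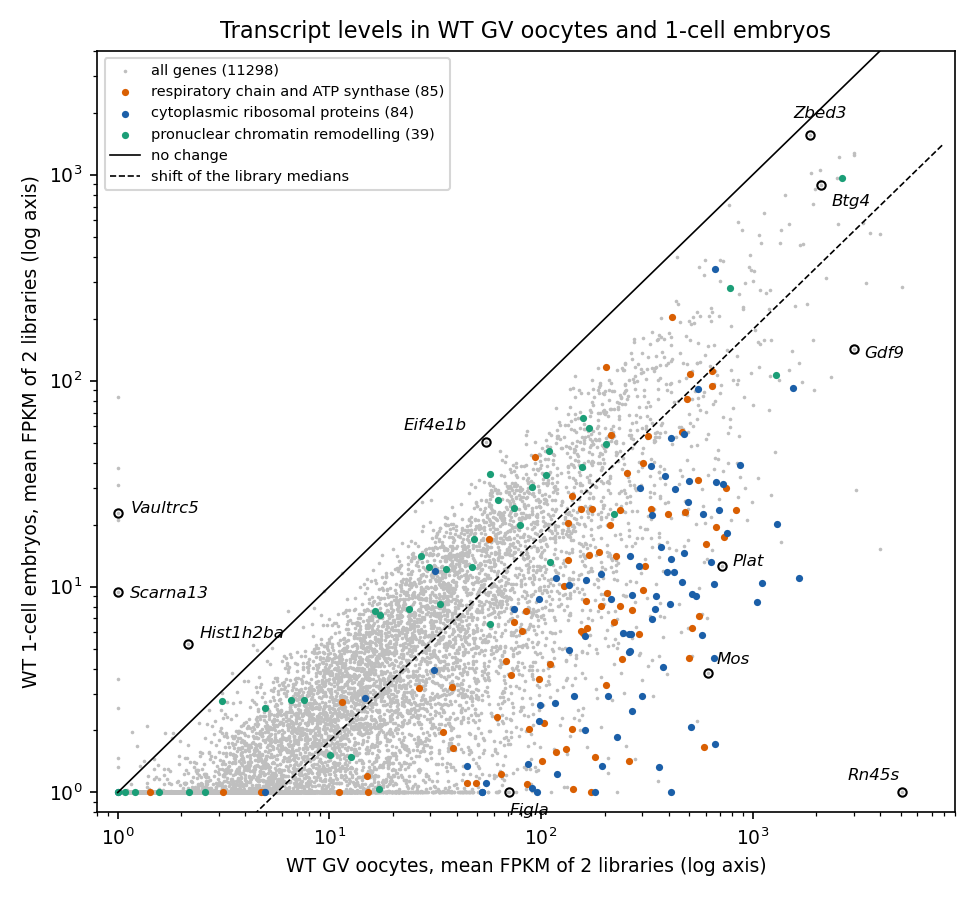
Mean FPKM of the 2 WT 1-cell libraries (vertical, log axis) against the mean of the 2 WT GV libraries (horizontal, log axis) for 11298 genes, 1 point per gene. The solid line marks equal levels and the dashed line the shift of the library medians; blue ribosomal protein genes lie mostly below the dashed line, green chromatin genes mostly above it, and genes at 1 FPKM are at the floor.

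The second question was which transcripts fell by more or by less than this shared shift. Each library was therefore multiplied by 1 number that brought its median over the 6245 genes to that of the oocytes, with 1 common floor, and the model was fitted again. After centring, 2201 genes (19.5%) were called lower and 2447 (21.7%) were called higher. At least 2-fold changes made up 1377 of the lower calls (12.2% of genes) and 1072 of the higher calls (9.49%). A transcript called higher after centring is one that fell by less than the shared shift. With the library factor divided out instead, 1388 of the 2447 were still called higher. In most cases its deposited level fell, because 2335 of the 2447 genes were called lower as deposited, 108 were not called and 4 were called higher. All 2201 genes called lower after centring were also lower as deposited. Another 3795 genes lay at the common floor in all 4 libraries after centring and could not be called. They count in the shares of all genes, so a list with few such members has more genes open to a call in either direction. Such members numbered 2 of 53 in the list of DNA replication, 2 of 61 in that of the meiotic cell cycle and 2 of 30 in that of oocyte factors. They numbered 4 of 40 for deadenylation, 3 of 42 for mRNA storage, 5 of 31 for the egg coat and 14 of 36 for histones. List counts below stand beside 85.8% of all genes lower as deposited, and 21.7% higher and 19.5% lower after centring. The centre itself was not the same under every scaling. The median centred log2 change of the 6245 genes was 0.24, against 0.01 with median-ratio size factors, 0.38 with quantile normalization and -0.09 with the library factor divided out. Higher calls made up 52.6% of calls after centring, 36.4% with median-ratio factors, with 1669 higher and 2917 lower, 49.2% with quantile normalization, with 2603 and 2685, and 30.6% with the factor divided out, with 1390 and 3147. Under all 4 of these scalings 1347 genes were called higher and 1915 lower.

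Mos, Plat and Figla, named as marks of the oocyte, were among the transcripts with the smallest shares left. Of the 18 oocyte and egg markers, to which they belong, 11 were lower and 6 higher after centring. Over all genes 19.5% were lower and 21.7% higher. Mos encodes the kinase that activates the MAP kinase pathway and holds the egg in metaphase II. It measured 609 and 621 FPKM in oocytes and 3.14 and 4.49 FPKM in embryos, a log2 change of -7.01 ± 0.20 (SE; limma adjusted p = 4.69e-08) as deposited and -4.79 ± 0.22 after centring (adjusted p = 8.93e-08). Plat, which encodes tissue plasminogen activator, measured 797 and 636 FPKM in oocytes and 15.2 and 9.86 FPKM in embryos, a change of -5.75 ± 0.32 as deposited (adjusted p = 3.33e-07) and -3.35 ± 0.22 after centring (adjusted p = 7.83e-07). Figla encodes a transcription factor that switches on egg coat genes in growing oocytes, and its transcript went from 64.9 and 76.6 FPKM to the floor in both embryo libraries. The oocyte and embryo values of these 3 transcripts do not overlap, and between the stages lies a gap far wider than that between replicates. Oocyte values both above the embryo values were found for 88.8% of all genes, so the lack of overlap is not particular to them. Pabpn1l, the poly(A)-binding protein gene that is deleted in the KO groups of the series, measured 220.1 and 204 FPKM in oocytes and 16.4 and 12.2 FPKM in embryos, or 6.74% of the oocyte mean. Its centred log2 change was -1.40 ± 0.27 (adjusted p = 0.00116). Btg4, in contrast, measured 2049.7 and 2148 FPKM in oocytes and 1084 and 694 FPKM in embryos. Its embryo mean was 42.4% of its oocyte mean, a log2 change of -1.27 ± 0.23 as deposited (adjusted p = 5.96e-04). After centring it was higher by 1.22 ± 0.26 (adjusted p = 0.00224). The centred call of Btg4 was lost in a fit of only the 4 libraries compared and in a fit of the 8 GV and 1-cell libraries of both genotypes.

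**Figure D2:**
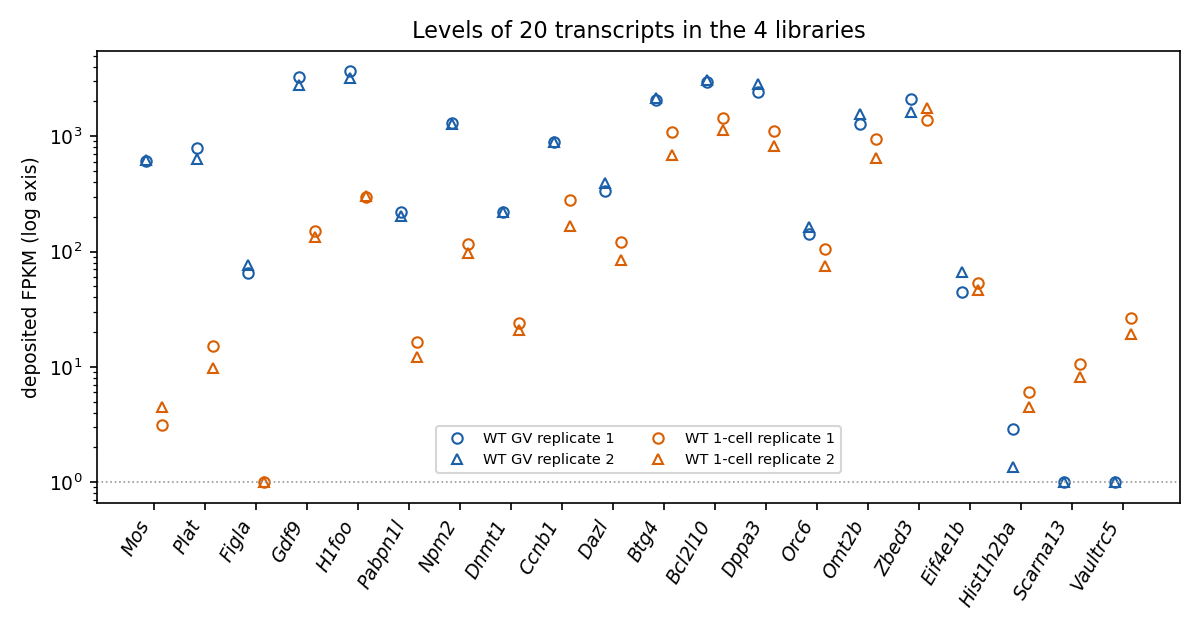
Deposited FPKM (log axis) of 20 transcripts in the 4 libraries, circles for replicate 1 and triangles for replicate 2, blue for WT GV oocytes and orange for WT 1-cell embryos; the dotted line is the floor. From left to right the gap between stages narrows from more than the height of 2 decades for Mos to an overlap for Zbed3 and Eif4e1b, and Scarna13 and Vaultrc5 are at the floor in both oocyte libraries only.

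Because the polyadenylation element lies in the last stretch of the transcript, the 30 bases around it are shown for transcripts that kept a large share and for a pair that did not. They are given in the sense of the mRNA with DNA letters, from GENCODE transcripts on the GRCm38 genome. Capitals mark the letters TTTTAT or TTTTAAT and, where it falls in the same 30 bases, the cleavage signal AATAAA. Where copies of AATAAA overlap, as in Omt2b, only the first is in capitals. All lie in the annotated 3′ UTR.
Zbed3, 83.8% left, chr13:95337807-95337836, plus strand: ccttttttttTTTTAATAAAcTTTTATtta
Orc6, 59.3% left, chr8:85308005-85308034, plus strand: tggttttttaaaTTTTATttcactaaatgt
Cks2, 57.8% left, chr13:51650609-51650638, plus strand: gTTTTATtttacctgttttgttaAATAAAg
Omt2b, 55.8% left, chr9:78329558-78329587, plus strand: ttttaacggTTTTATAATAAAtaaaagttt
Cnot7, 48.5% left, chr8:40493036-40493065, minus strand: ttaaggtacaTTTTATatcAATAAAaatac
Bcl2l10, 42.5% left, chr9:75351590-75351619, plus strand: tTTTTAATaacttcaaattcttAATAAAtg
Btg4, 42.4% left, chr9:51119797-51119826, plus strand: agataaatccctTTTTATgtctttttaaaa
Gdf9, 4.71% left, chr11:53437862-53437891, plus strand: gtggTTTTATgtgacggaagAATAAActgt
Plat, 1.75% left, chr8:22782745-22782774, plus strand: gtatatttataTTTTAATctattttagttt
Gdf9 and Plat carry the letters and were among the transcripts with little left. No match was found in the last 100 bases of the transcripts used for Mos, Figla, Pabpn1l, Dazl or Ccnb1. The same was true of transcripts with much left, namely Eif4e1b (90.9% left), Dcp2 (84.8%), Snrpg (65.1%), Mphosph6 (54.4%), Pttg1 (48%), Cnot6l (46.5%) and Oosp1 (41.4%). A missing match says only that these letters are not in that window of that annotated end.

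Over all transcripts the letters went with the share left. This was examined in the 3919 genes with an oocyte mean of at least 20 FPKM, sorted by the share of the oocyte mean left in embryos, and the sorting and the features were chosen after the values had been seen. At least 50% was left for 141 genes, 25 to 50% for 1103, 12.5 to 25% for 1078, 6.25 to 12.5% for 782 and under 6.25% for 815. The highest class depended on the replicate, with 250 genes by the libraries numbered 1 and 85 by those numbered 2. The element letters were found, on the transcript strand, in the last 100 bases of 38.5% of the matched transcripts of the highest class (52 of 135), and then in 30.6%, 19.9%, 15.7% and 12% (95 of 791). Over all 3781 matched transcripts the share was 21.1%, and over the 10533 genes of the table with a matched transcript it was 19.5%. With shares left taken from the libraries numbered 1 alone, the highest and the lowest class held the letters in 36.7% and 12%, and with those numbered 2 alone in 34.2% and 12.8%. The classes differed in more than these letters. The same letters reversed, TATTTT or TAATTTT, were found in 29.6% of the highest class, and then in 26%, 23.4%, 17% and 14.2%. Over all 3781 matched transcripts their share was 21.2%, and over the 10533 it was 20.8%. In each class under 25% left the reversed letters were the more common. The last 100 bases were 71% A or T at the median in the highest and 61% in the lowest class. The letters therefore moved together with base composition, and their own part was not tested. The cleavage signal, AATAAA or ATTAAA, was found in the last 40 bases of 83% of the highest and 68.9% of the lowest class. How well annotated ends match those of oocyte transcripts was not tested, and it bears on the letters and on 3′ UTR length. The median oocyte level was 45.5 FPKM in the highest and 71.9 FPKM in the lowest class.

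Length moved with the share left as well. From the highest class to the lowest, the median coding sequence shortened from 1353 to 723 bases and the median 3′ UTR from 1150.0 to 286 bases, and G or C at the third codon position went from 51.7% to 61.9%. The last of these depended on the replicate, with 49.6% and 62.5% in the highest and lowest class by the libraries numbered 1 and 58.9% and 61.1% by those numbered 2. The coding length went from 1069.5 to 738 bases and from 1740 to 735 bases by the same 2 sortings. Transcripts with a coding sequence under 600 bases kept 10.5% of the oocyte level at the median, those of 600 to 1800 bases kept 15.2% and longer ones 24.4%. Within each of these length ranges the median share left was higher with the element letters than without. It was 19% against 9.20% for the short, 22.5% against 13.9% for the middle and 28% against 22.8% for the long. Shares left with and without the reversed letters were not compared. The ribosomal, respiratory and proteasome genes described next are short, with a median coding length of 528 bases in the 263 that reach 20 FPKM. Without them, the lowest class still had a median coding length of 822 bases and the letters in 12.9%, against 1369.5 bases and 38.6% in the highest. These shares and medians are descriptions of annotated sequences and carry no test.

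**Figure D3:**
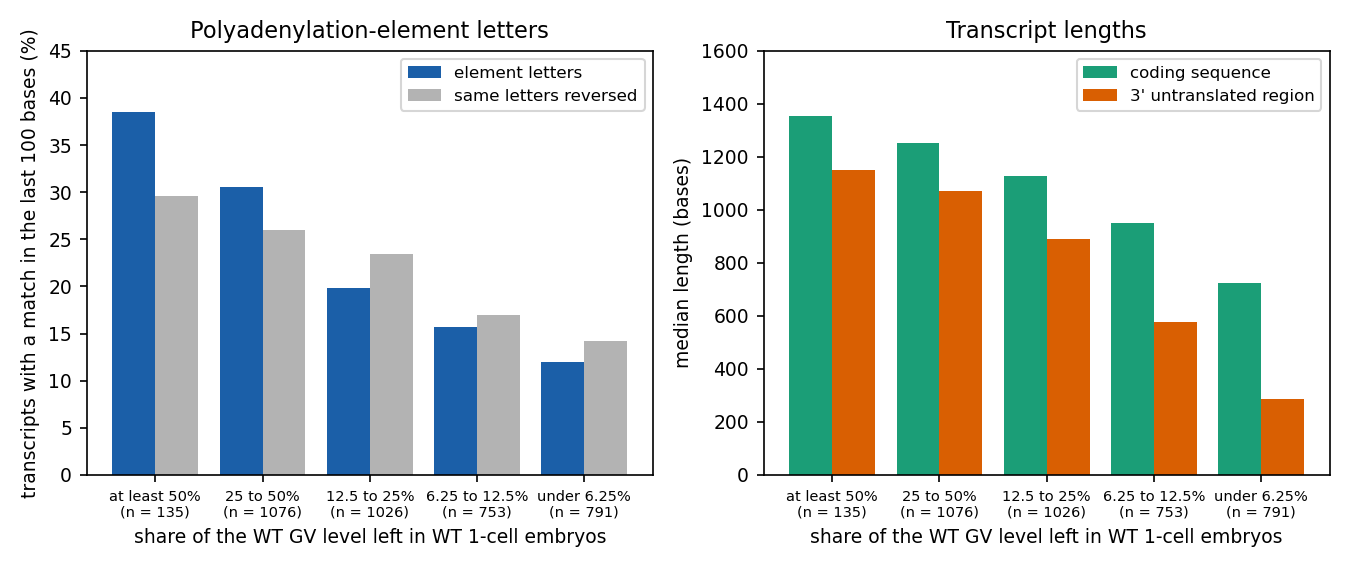
Left, percentage of transcripts with the element letters (blue) or the same letters reversed (grey) in the last 100 bases; right, median length in bases of the coding sequence (green) and 3′ UTR (orange), for 5 classes of share left, with the number of matched transcripts under each class. The element letters go from 38.5% to 12% and the 3′ UTR from 1150.0 to 286 bases.

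Cytoplasmic ribosomal proteins had the smallest median shares left of the 32 gene lists. Ribosomal proteins of the large subunit kept 2.43% of the oocyte level at the median (2.69% by the replicates numbered 1 and 2.28% by those numbered 2), against 27.7% over all genes, a median that includes genes at the floor. As deposited, 51 of 52 measured members were lower, where 85.8% of all genes were, and after centring 46 of 52 were lower and 0 higher (0 also at an unadjusted limma p under 0.05), where 19.5% and 21.7% of all genes were. Their median centred log2 change was -2.83. That of all genes, which include the 3795 at the common floor, was 0.00. That of the 6245 genes above the floor in all 4 libraries was 0.24. The small subunit was alike, with 2.67% left at the median, 32 of 32 members lower as deposited, and 28 lower and 2 higher after centring, with a median of -2.72. Rpl39 went from 1528 and 1774 to 11.2 and 10.7 FPKM, a log2 change of -7.11 ± 0.45 (adjusted p = 6.66e-07), and Rpl5 from 628 and 677 to 5.26 and 3.75 FPKM. Rps27 and Rps19 went from 410.4 and 412 FPKM and 174 and 184 FPKM to the floor in both embryo libraries. Ribosomal protein genes have many near-identical processed pseudogenes, so how fragments were shared out among copies is uncertain. The 2 small-subunit members that rose after centring were Rps27l, a paralog of Rps27, at 639.6 and 683 FPKM in oocytes and 419 and 276 FPKM in embryos, and Rps15a, at 30.5 and 32.5 and 13.6 and 10.1 FPKM. The centred call of Rps27 was lost without WT GV replicate 2, without either WT 1-cell replicate, with robust moderation and in the fit of 8 libraries.

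Respiratory and mitochondrial ribosomal genes had the next lowest medians. Of 76 mitochondrial ribosomal proteins, 76 were lower as deposited, and 55 were lower and 1 higher after centring, with a median centred change of -1.32 and 6.84% left. The 1 higher member, Mrpl45, was at 0.52 ± 0.19 (adjusted p = 0.0432) and was not called with any 1 of the 4 libraries left out, with a replicate block, with median-ratio factors or with the library factor divided out. Mrpl14 went from 253 and 242 FPKM to 3.37 and 2.74 FPKM. Of 85 nuclear-encoded genes of the respiratory chain and ATP synthase, 84 were lower as deposited, and 63 were lower and 4 higher after centring, with a median of -1.72 and 5.20% left. Cox17, a copper chaperone needed to build cytochrome oxidase, went from 513 and 573 to 2.65 and 1.78 FPKM, Ndufb4 of complex I from 461 and 534 to 3.91 and 5.12 FPKM, and Ndufa9 from 165 and 179 FPKM to the floor. Among the 4 higher members were Cox8a and Cox6b2, subunits of cytochrome oxidase. Cox8a kept 49% (389 and 442 FPKM in oocytes, 234 and 173 FPKM in embryos), and Cox6b2, the subunit form known from testis, kept 57.5%. Both rose after centring, by 1.45 ± 0.21 and 1.69 ± 0.25.

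Proteasome genes were mostly lower as well. Of 45 measured, 42 were lower as deposited, and 27 were lower and 3 higher after centring, with a median of -1.12 and 8.16% left. Psmb1 and Psmb7, subunits of the catalytic core, went from 381 and 406 to 4.32 and 3.21 FPKM and from 372 and 390.2 to 8.12 and 6.07 FPKM. Psme4 and Psme3, activators that cap the core, kept 56.3% and 42.9% and rose after centring, by 1.63 ± 0.21 and 1.27 ± 0.23. Translation factors showed calls on both sides, with 23 of 62 lower and 15 higher after centring and a median of -0.07. With the library factor divided out 30 were lower and 5 higher, with a median of -0.47. Eif3g and Eif3l, subunits of the initiation factor eIF3, fell from 207 and 208 to 1.61 and 1.35 FPKM and from 93.4 and 85.5 to 1.19 and 1.01 FPKM. Eif4e1b, the oocyte form of the cap-binding protein, was at 44.4 and 66 FPKM in oocytes and 53.6 and 46.7 FPKM in embryos, so that its values overlapped between stages and its level as deposited was not called (-0.11 ± 0.26, adjusted p = 0.729).

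**Figure D4:**
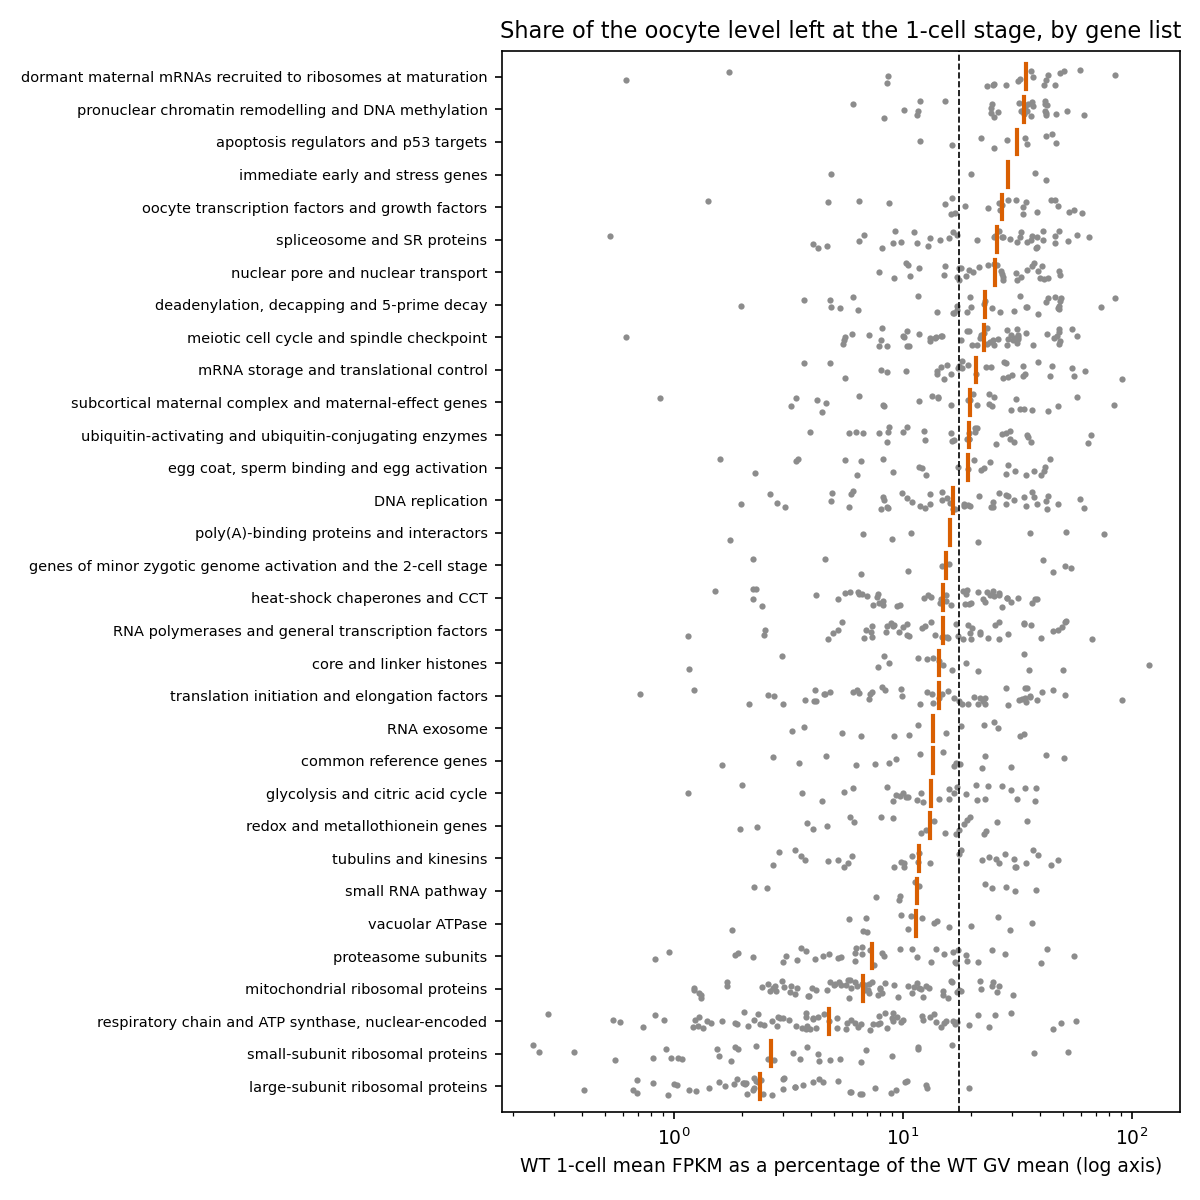
Share of the WT GV mean left in WT 1-cell embryos (log axis, percent) for members of the 32 gene lists with an oocyte mean of at least 5 FPKM, 1 grey point per gene, the orange bar being their median and the dashed line the shift of the library medians (17.7%). Cytoplasmic ribosomal proteins, respiratory chain genes and mitochondrial ribosomal proteins lie lowest, and dormant mRNAs and pronuclear chromatin genes lie to the right of the dashed line.

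Dormant maternal mRNAs, which are known from other work to be taken up by ribosomes as the oocyte matures, mostly kept more than the shared shift. Of 20 measured, 19 were lower as deposited, while after centring 13 were higher and 4 lower, with a median centred change of 0.92 and 34.5% left (38.6% by the replicates numbered 1 and 29.0% by those numbered 2). Orc6, a subunit of the origin recognition complex, went from 142 and 162 to 105 and 75.1 FPKM, with 59.3% left and a centred change of 1.72 ± 0.19 (adjusted p = 3.01e-05). Dcp2, the decapping enzyme, was at 8.02 and 6.94 FPKM in oocytes and 6.93 and 5.76 FPKM in embryos and was not called as deposited (-0.21 ± 0.19, adjusted p = 0.319), and it rose by 2.11 ± 0.16 after centring. Cnot7, a catalytic subunit of the deadenylase, went from 186 and 184 to 113 and 66 FPKM, and Dazl, an RNA-binding translational activator, from 337 and 392 to 122 and 84 FPKM. Ccnb1, which encodes cyclin B1, kept 24.8% and was not called after centring (0.44 ± 0.29, adjusted p = 0.294). The 4 members lower after centring were Mos, Plat, Cdc6 and Rad51c. Cdc6, which loads the replicative helicase, went from 18.8 and 12.1 to 1.41 and 1.25 FPKM, and Rad51c, a recombination factor, from 19 and 20.5 to 2.22 and 1.14 FPKM. The list was drawn up with earlier results of these data known.

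Genes of deadenylation and decapping were spread over the range. Of 40 measured, 37 were lower as deposited, where 85.8% of all genes were. After centring 15 were higher and 8 lower (37.5% and 20%, against 21.7% and 19.5% of all genes), with a median of 0.11 and 25.6% left. Cnot3, a scaffold subunit of CCR4-NOT, was at 21.5 and 22.4 FPKM in oocytes and 13.1 and 19.3 FPKM in embryos and rose by 1.99 ± 0.31 after centring. Patl2, an oocyte RNA-binding protein of the translational store, went from 54.6 and 49.8 to 2.14 and 1.74 FPKM, and Lsm3, a subunit of the LSM ring, from 472 and 522 to 27.1 and 20.7 FPKM. The 16 measured genes of the RNA exosome and its cofactors were all lower as deposited, with 7 lower and 3 higher after centring, or 1 higher without WT GV replicate 2 and 0 with median-ratio factors or the factor divided out. Exosc4, a core subunit, went from 37.7 and 36.4 to 1.71 and 1.04 FPKM.

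Poly(A)-binding proteins and their partners differed among themselves. Of 8 measured, 7 were lower as deposited, and 3 were lower and 3 higher after centring. Pabpn1, the nuclear poly(A)-binding protein, kept 76%, with 21.1 and 18.9 FPKM in oocytes and 14.6 and 15.8 FPKM in embryos, and rose by 2.05 ± 0.24 after centring (adjusted p = 3.92e-05). Its paralog Pabpn1l kept 6.74%. Paip1, which stimulates translation through PABP, kept 51.6%, and Paip2, which inhibits it, went from 524 and 587 to 11.5 and 8.12 FPKM, or 1.77% left, with a centred change of -3.32 ± 0.19 (adjusted p = 3.52e-07). Among 42 genes of mRNA storage and translational control, 38 were lower as deposited. After centring 15 were higher and 6 lower (35.7% and 14.3%, against 21.7% and 19.5% of all genes), with a median of 0.11. With the library factor divided out the counts were 10 and 9. Cpeb1, the protein that binds the polyadenylation element, fell from 249 and 214 to 13.5 and 12.5 FPKM, and Lsm14a, a repressor found in oocyte RNA granules, kept 62.5%.

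Oocyte-specific genes fell by very different amounts. Among 30 oocyte transcription and growth factors, 27 were lower as deposited. After centring 15 were higher and 4 lower (50% and 13.3%, against 21.7% and 19.5% of all genes), with a median of 0.57 and 32.4% left. With median-ratio factors 8 were higher and 5 lower, with a median of 0.26, and with the library factor divided out 8 and 6, with a median of 0.15. Gdf9, the growth factor by which the oocyte acts on its follicle, went from 3254 and 2761 to 151 and 133 FPKM, and Nobox, a homeobox regulator of oocyte genes, from 346 and 317 to 21.4 and 21.4 FPKM. Both fell after centring, by -1.91 ± 0.28 and -1.45 ± 0.29. Omt2a and Omt2b, oocyte maturation genes that lie close to each other and are similar in sequence, kept 60.6% and 55.8%. Bmp15, the partner of Gdf9, kept 27.1%, against 4.71% for Gdf9.

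Maternal-effect genes, whose products the embryo needs before its own genome is active, held calls on both sides. Of 32 measured, 30 were lower as deposited, and 10 were higher and 10 lower after centring, where 21.7% and 19.5% of all genes were. Only 1 of the 32 lay at the common floor in all 4 libraries, against 3795 of all 11298 genes. The 2 sets of shares are therefore not on the same footing. The higher ones numbered 6 without WT GV replicate 1. With median-ratio factors 5 were higher and 11 lower, and with the library factor divided out 5 and 13. Members of the subcortical maternal complex, a protein assembly under the egg membrane, were found over the whole range. Zbed3 had the highest mean level in the embryo libraries at 1386 and 1741 FPKM, against 2105 and 1627 FPKM in oocytes. Oosp1, Pttg1 and Bcl2l10 exceeded it in WT 1-cell replicate 1. The Zbed3 values overlapped between stages, and its level as deposited was not called (-0.25 ± 0.38, adjusted p = 0.561). Tle6 went from 1080.3 and 758 to 32.3 and 27.6 FPKM, and Ooep from 2082 and 2621 to 119.9 and 88.6 FPKM. The gene listed as 2410004A20Rik went from 342 and 331 to 3.04 and 2.83 FPKM, or 0.872% left. Dppa3, which protects the maternal genome from demethylation, went from 2439 and 2843 to 1112 and 825 FPKM and was higher after centring by 1.04 ± 0.25, a call that was lost with median-ratio factors, quantile normalization and the divided-out factor, and in the fits of only the 4 libraries and of the 8 GV and 1-cell libraries.

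Meiotic cell cycle genes held calls on both sides. Of 61 measured, 60 were lower as deposited. After centring 24 were higher and 14 lower (39.3% and 23%, against 21.7% and 19.5% of all genes), with a median of 0.28. Cks2 and Cks1b, small subunits of cyclin-dependent kinases, kept 57.8% and 54.7%, and Pttg1, or securin, went from 2408 and 2676 to 1427 and 1013 FPKM. Anapc13, a small subunit of the anaphase-promoting complex, fell from 60.8 and 73.3 to 4.79 and 2.58 FPKM, and its centred call was lost without WT GV replicate 2 and without WT 1-cell replicate 2. With median-ratio factors 14 meiotic members were higher and 21 lower, and with the library factor divided out 10 and 21, so that the balance of this list reversed.

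Genes that remodel chromatin in the pronuclei and place DNA methylation mostly kept more than the shared shift. Of 39 measured, 35 were lower as deposited, and 23 were higher and 3 lower after centring (15 and 6 with the library factor divided out), with a median of 0.88 and 36.3% left (38.6% and 34.0% by replicate number). Suz12 of the Polycomb repressive complex and Kdm6a, a histone H3 lysine demethylase, kept 61.9% and 52.2% and rose by 1.79 ± 0.26 and 1.51 ± 0.21 after centring. The members called lower included Npm2, the chaperone that unpacks sperm chromatin, which went from 1289 and 1275 to 116 and 97.6 FPKM, and Dnmt1, the maintenance DNA methyltransferase, which went from 219 and 222 to 24.1 and 20.9 FPKM. Among 53 DNA replication genes, 53 were lower as deposited. After centring 17 were higher and 18 lower (32.1% and 34%, against 21.7% and 19.5% of all genes). With the library factor divided out the counts were 10 and 24. Only 2 of the 53 lay at the common floor in all 4 libraries, against 3795 of all 11298 genes. The shares of the list and of all genes are therefore not on the same footing. Rpa3 kept 61.9% and Rpa2 kept 2.84%, and both are subunits of the single-strand binding protein RPA.

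Histone genes had a median oocyte level of 4.03 FPKM. Most replication-dependent histone mRNAs are known to end without a poly(A) tail. Of 36 measured, 23 were lower as deposited and 1 was higher. After centring 6 were higher and 7 lower (16.7% and 19.4%, against 21.7% and 19.5% of all genes). The higher ones numbered 3 without WT GV replicate 1, without WT GV replicate 2 and without WT 1-cell replicate 1. Hist1h2ba, a germ cell variant of H2B, was at 2.92 and 1.35 FPKM in oocytes and 6.06 and 4.49 FPKM in embryos, a rise of 1.04 ± 0.30 as deposited (adjusted p = 0.0091). That call was lost in a fit of only the 4 libraries, without WT GV replicate 2 and without WT 1-cell replicate 1. Hist1h1a, a linker histone, was at 6.78 and 5.99 and 8.42 and 6.79 FPKM and was not called as deposited (adjusted p = 0.447). Hist1h2bc fell from 287 and 314 to 5.03 and 1.97 FPKM, and H1foo, the oocyte linker histone and one of the most abundant oocyte transcripts, from 3654 and 3212 to 295 and 302 FPKM.

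Among 31 genes of the egg coat, sperm binding and egg activation, 30 were lower as deposited. After centring 8 were higher and 11 lower (25.8% and 35.5%, against 21.7% and 19.5% of all genes). With the library factor divided out the counts were 5 and 13. Astl, the protease that cleaves the egg coat after fertilization, fell from 264 and 211 to 3.87 and 3.73 FPKM, and Cd9, a membrane protein needed for sperm and egg to fuse, from 264 and 298 to 7.8 and 4.87 FPKM. Oosp1, an oocyte-secreted protein, went from 2699.5 and 3294 to 1476 and 1005 FPKM and kept 41.4%. Of 51 genes listed for the weak first wave of embryonic transcription and for the 2-cell stage, 32 were measured, 17 of them at the floor in all 4 libraries. As deposited 0 were higher by limma (0 also at an unadjusted p under 0.05) and 12 were lower, and after centring 4 were higher and 4 lower. The 2-cell genes Tdpoz1, Usp17l5 and Pramel7 were at the floor in all 4 libraries. Of 45 nuclear pore and transport genes, 44 were lower as deposited, and 17 were higher and 4 lower after centring, with a median of 0.15. With median-ratio factors 10 were higher and 9 lower, and with the library factor divided out 10 and 10. For the 12 remaining pathway lists the median centred change lay between -0.37, for the vacuolar ATPase, and 0.38, for spliceosome and SR proteins. Among those 46 spliceosome genes, 44 were lower as deposited, and 19 were higher and 11 lower after centring, against 15 and 16 with median-ratio factors and 11 and 17 with the library factor divided out, with Snrpg at 65.1% and Snrpc at 4.08% of the oocyte mean.

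The genes that rose on the deposited scale were few. Besides Hist1h2ba they were Vaultrc5, a vault RNA gene, Scarna13, a small Cajal body RNA gene, and Gm12238. Vaultrc5 was at the floor in both oocyte libraries and at 26.4 and 19.2 FPKM in embryos (adjusted p = 3.72e-06). Scarna13 was at the floor in oocytes and at 10.7 and 8.1 FPKM in embryos (adjusted p = 4.16e-07), and Gm12238 at 24.9 and 37.1 FPKM. Vault RNAs and small Cajal body RNAs are short and lack a poly(A) tail, so their values in these libraries are uncertain. Gm12238 measured 1 and 40.2 FPKM in the 2 KO oocyte libraries, so that 1 of these exceeded both WT embryo libraries. Scarna10 and Scarna17 had high values in 1 WT embryo library only, 74.7 and 1 FPKM and 1 and 166 FPKM, and were not called. The same caution holds for Rn45s, the ribosomal RNA precursor, which had the highest oocyte mean of the table at 4049.8 and 6056 FPKM and lay at the floor in both WT embryo libraries.

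Several protein-coding transcripts were not called between the stages on the deposited scale and were among the largest rises after centring. Srrm1, a splicing cofactor, was at 28 and 32.1 FPKM in oocytes and 27.4 and 25.1 FPKM in embryos, and Gatad2b, a subunit of the NuRD complex, at 22.9 and 27.9 and 22.1 and 24.3 FPKM. Their deposited log2 changes were -0.19 and -0.12, neither called, and their centred changes were 2.26 ± 0.23 and 2.33 ± 0.28, both called under each of the 4 scalings above. Lars2, at 399.8 and 476 FPKM in oocytes and 328 and 466 FPKM in embryos, belongs to them too, but reads of ribosomal RNA are known to be placed on a stretch of this gene and its value is uncertain.

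The most abundant transcripts changed places between the stages. By mean FPKM, a value per length, the first 5 of the oocyte were Rn45s, Tlcd2, Ldhb, H1foo and Skp1a. Ldhb, the lactate dehydrogenase subunit of the oocyte, went from 3331 and 3859 to 602 and 438 FPKM, close to the shared shift with a centred change of -0.31 ± 0.27 (adjusted p = 0.498). In the embryo the first 5 were Zbed3, Bcl2l10, Oosp1, Pttg1 and Rfpl4. Bcl2l10, an oocyte member of the BCL2 family, went from 2927 and 3077 to 1424 and 1128 FPKM, and its centred change of 1.25 ± 0.29 was not called with quantile normalization, in a fit of only the 4 libraries or in one of the 8 GV and 1-cell libraries. Neighbours in the embryo order, such as Bcl2l10 and Oosp1 with 1476 and 1005 FPKM, differed by less than their replicates did.

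The design also allows the same transition to be compared between genotypes. Whether KO refers to the mother, the embryo or both is not given in the labels. As deposited, 7563 genes (66.9%) were lower in KO 1-cell embryos than in KO GV oocytes. With all 8 libraries centred, the change from oocyte to embryo was higher in KO than in WT for 327 genes (2.89%) and lower for 175 (1.55%), by an interaction term in the same model. The difference was at least 2-fold for 293 (2.59%) and 90 (0.797%) of them. Leaving out single libraries gave between 135 and 308 genes on the higher side and between 36 and 171 on the lower side. Higher genes numbered 135 without WT GV replicate 2, 159 without KO GV replicate 2, 166 without WT 1-cell replicate 2 and 207 without WT GV replicate 1. Lower genes numbered 36 without WT GV replicate 1, 45 without KO GV replicate 2, 50 without WT GV replicate 2, 93 without KO 1-cell replicate 2, 108 without WT 1-cell replicate 2 and 112 without KO GV replicate 1. On the deposited scale, with the library factors in the values, the counts were 4374 and 97. The 4374 held all 327 genes of the centred higher side. The 97 held only 8 of the 175 of the lower side, so that side is mostly made of other genes. Mos kept 0.621% in WT and 6.3% in KO, with 30.8 and 43.6 FPKM in KO embryos, and its transition differed by 2.08 ± 0.31 on the log2 scale (adjusted p = 0.00375). For Plat, with 9.07% left in KO, the difference did not pass the test (1.08 ± 0.31, adjusted p = 0.0828). Figla kept 5.42% in KO, and as it lay at the floor in WT embryos no size of its difference is given (adjusted p = 0.633). Paip2 kept 37.4% in KO against 1.77% in WT and differed by 3.18 ± 0.27 (adjusted p = 1.53e-04). Large-subunit ribosomal proteins also kept little in KO, 6.72% at the median against 53.2% over all genes, and 7 of 52 differed between genotypes, all higher in KO.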

How the data were processed

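The data were FPKM values of 12 libraries in 1 table deposited by the authors. The tools were TopHat2 2.1.1 and Cufflinks 2.2.1 and the build was mm9, per the submitters' processing notes, and ERCC spike-in RNA was added at lysis, per the labels' protocols. The deposited FPKM table held 0 ERCC and 0 mitochondrially encoded entries, and its complete entries ran in alphabetical order from 0610007C21Rik to Zc3h14; later genes were not analysed here. FPKM carry no counts, so the depth is unknown and counting intervals cannot be given.

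The library factors were found from the decimals of the deposited values, of which 100% were 6-digit numbers times 1 factor per column, within 0.01 of the last digit. The test was limma (3.58.1, under R 4.3.3) on log2(FPKM + 1) with an intensity trend and all 12 libraries in 6 groups, without a filter on low values. Fold changes on this scale understate those of low genes. Tests were two-sided, with Benjamini-Hochberg adjustment over 11298 genes. For centring, each library was multiplied by 1 number and values under the highest resulting floor of the 4 libraries were raised to it. The scripts were tested on simulated data, in which the share of false calls among the centred calls was above the nominal threshold. With 200 genes changed, 43 of 11098 unchanged genes were called. Of 50 genes changed by -1 on the log2 scale 19 were called, and of 50 changed by 1, 18 were. At -2 and at 2, 49 of 50 were called. Alternatives were other pseudocounts, filters, scalings, sets of libraries, a replicate block and leaving out each library.

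The members, the 32 gene lists, the 5 marker lists and the rule for named genes were chosen with earlier results of these data known. The rule names Mos, Plat, Figla, Pabpn1l and Btg4, the 12 largest falls called on both scales, the 10 most abundant oocyte genes at the floor in embryos, the 12 largest centred rises, genes higher as deposited and the 10 most abundant genes of each stage, all passing over symbols of the Gm, Rik and LOC kinds, and up to 2 members of each list in each direction. Of the genes it picks, 2 are not reported here. Cnot7, Cnot6l, Dazl, Ccnb1, Cdc6, Rad51c, Bmp15, Ooep, Gm12238, Scarna10, Scarna17, the 2-cell genes and the markers of other cells were named outside it, after their values were seen. Sequences came from GENCODE M21 transcripts on GRCm38, matched by symbol for 10533 genes, 953 of them through an older symbol; the class edges, letters and printed sites were chosen after values were seen.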

Additional observations from a re-analysis of the deposited data

Results flagged for a closer look

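The change from oocyte to embryo differed between WT and KO, by the limma interaction term on centred values, for 25 of the genes that the naming rule picked, and all 25 were higher in KO. That rule takes the largest WT falls in these same libraries, so the shared direction is no independent evidence. Of the 25, Rn45s, Rpsa, Psmc3ip and Use1 lay at the floor in both WT 1-cell libraries. Their fitted differences (10.75, 3.08, 1.04 and 0.91 on the log2 scale) are therefore set by the floor and are not sizes. KO 1-cell libraries held 3286 and 4838 FPKM of Rn45s, a ribosomal RNA precursor whose level in libraries primed on poly(A) is uncertain. Rpl18 (3.18) and Eif3l (1.27) had 1 WT 1-cell library at the common floor after centring, which enters their values too. Pabpn1l (1.70) is the gene deleted in KO: KO oocytes held 7.23 and 4.98 FPKM and 1 of these libraries lay at the common floor. Its centred change in KO, 0.30 on the log2 scale, is therefore set in part by the floor. Hist1h2bc differed by 4.32, with 5.03 and 1.97 FPKM in WT and 158 and 175 FPKM in KO embryos. On the same log2 scale the others were those of 2410004A20Rik (3.56), Paip2 (3.18), Cd9 (3.13), Rpl5 (3.06), Ube2t (2.96), Psmb1 (2.86), D5Ertd577e (2.34), Gtf2h5 (2.32) and Cox17 (2.32). Smaller ones were those of Psmb7 (2.17), Mos (2.08), Eif3g (1.93), Ppia (1.69), Mrpl14 (1.63), Tarbp2 (1.37), Gpx4 (1.33) and Sdhb (1.25). Among the ribosomal, respiratory and proteasome genes in this set, Rpl18, Rpl5, Rpsa, Psmb1, Psmb7, Cox17, Mrpl14 and Sdhb, each had a negative centred estimate in both genotypes, the lower one in WT. Over all genes the transition differed for 327 genes that were higher in KO and 175 that were lower, 2.89% and 1.55% of those tested, so both directions occur. Leaving out some single libraries changed these counts by more than 1.5 times, as given above. The interaction calls of single genes were not followed through the alternative fits. Nearest to the threshold were those of Use1 (limma adjusted p = 0.0483), Eif3l (0.0473), Psmc3ip (0.0445) and Sdhb (0.0393).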

How the results depend on the processing

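The direction of the fall and its calls for Mos, Plat and Figla held under every alternative run. Of 2804 alternative values for single genes, 2702 kept direction and side of the threshold, 86 lost the call, 5 gained one and 11 changed sign. The sign changes were of uncalled values near 0. With a pseudocount of 5 it was that of BC017612 (0.0016) as deposited. With single libraries left out, the log2 change as deposited ranged from -0.17 to 0.17 for BC017612, -0.39 to 0.17 for Eif4e1b, -0.33 to 0.12 for Myef2, -0.41 to 0.10 for Lars2, -0.26 to 0.016 for Gatad2b and -0.23 to 0.040 for Rph3a, and the centred change of Skp1a from -0.17 to 0.14.

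As deposited, genes called lower numbered 6001 when the mean had to reach 5 FPKM, which left fewer genes to test, and genes called higher 2 to 5 with single libraries left out, the 2 without WT GV replicate 2. Centred higher calls numbered 1390 with the library factor divided out. Without single libraries, the genotype difference gave 135 to 308 genes higher and 36 to 171 lower in KO, and as deposited 4374 and 97. The same replicate numbers stand in each group, but replicate differences of WT GV and WT 1-cell libraries correlated at -0.18 over 6245 genes, so the numbers are not known to pair samples. A replicate block gave 9689 lower and 4 higher genes as deposited and 2172 lower and 2402 higher after centring. A crossed block, added after seeing the data, gave 9683 and 4, and 2157 and 2370. For the genotype difference the block gave 276 higher and 131 lower.

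The list counts are those of centred values and change with the scale. As deposited, lower calls numbered 42 for the proteasome, 19 for dormant mRNAs, 35 for pronuclear chromatin, 44 for the nuclear pore, 37 for deadenylation, 38 for mRNA storage, 60 for meiotic genes, 27 for oocyte factors, 30 for maternal-effect genes, 7 for poly(A)-binding proteins, 16 for the exosome, 60 for translation factors, 23 for histones, 53 for replication, 30 for the egg coat and 12 for 2-cell genes, and higher calls were 0 in each list except 1 among histones. With the library factor divided out, higher and lower calls were 15 and 6 for pronuclear chromatin and 10 and 10 for the nuclear pore, and higher calls were 10 for meiotic genes, 8 for oocyte factors, 5 for maternal-effect genes, 0 for the exosome and for mitochondrial ribosomal proteins, 5 for translation factors, 10 for replication and 5 for the egg coat. With median-ratio factors, added for the lists after seeing the data, there were 6 lower for pronuclear chromatin, 10 higher and 9 lower for the nuclear pore, and 14 meiotic, 8 oocyte factor, 5 maternal-effect, 0 exosome and 0 mitochondrial ribosomal genes higher. Quantile normalization gave 3 mitochondrial ribosomal genes higher and 12 histones lower. Without single libraries, higher calls were 0 for mitochondrial ribosomal proteins, 3 to 5 for histones, 6 to 8 for maternal-effect genes and 1 to 2 for the exosome. For the other 12 lists single libraries were not left out. With 2 libraries a group, precision is limited by their number.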
